A study of Mus musculus with 8 samples.

Results

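The genes of the urea cycle and of the neighbouring steps of amino acid breakdown were followed in mouse liver RNA under a western diet, under CCl4 and under both. The set held 10 genes, taken by their listed symbols (Nags, Cps1, Slc25a15, Otc, Ass1, Asl, Arg1, Gls2, Hal and Sds) from the 55487 genes of the table, and all 10 were above 0 in every library. The livers came from wild-type male C57BL/6N mice, injected into the peritoneum once a week with the liver toxin CCl4 or with corn oil. The western diet (WD) joined a high-fat diet with fructose (23.1 g/L) and glucose (18.9 g/L) in the drinking water, and the normal diet (ND) was chow with tap water. There were 4 groups, WD + CCl4 (1 library), WD + oil (2 libraries), ND + CCl4 (2 libraries) and ND + oil (3 libraries), so every group received an injection and no group was left uninjected. The dose of CCl4, the length of treatment, the age of the mice and the number of animals behind a library are not given in the sources used here, so p-values are set against a spread between libraries that could be technical only.

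The urea cycle turns ammonia, which is toxic, into urea that the kidney can excrete. Its enzymes work in hepatocytes, first in the mitochondrion and then in the cytosol, and are most abundant in the periportal hepatocytes that meet blood from the gut first. Hepatocytes around the central vein lack much of this capacity and instead fix the ammonia that is left over into glutamine with the enzyme Glul, while CCl4 is made reactive mainly in those same pericentral cells.

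Levels are given as FPKM, fragments normalized to transcript length and to the mapped fragments of the library, so that levels of different genes can be compared. FPKM is a share of a library: the Mup family of secreted urinary proteins held 8.22% of the FPKM sum with WD + CCl4, 9.16% and 10.04% with WD + oil, 2.80% and 4.65% with ND + CCl4, and 16.9%, 22.1% and 32.5% with ND + oil. The median log2 fold change over all 11514 tested genes was 0.19 for WD + CCl4, 0.22 for WD + oil and 0.26 for ND + CCl4, each against ND + oil. Under median-of-ratios scaling these medians were 0.008 for WD + CCl4, 0.003 for WD + oil and 0.003 for ND + CCl4. Counts of members above or below 0 are therefore set beside the same share of all genes, and directions were checked under 3 other scalings (median-of-ratios, removal of the Mup family, and hepatocyte markers). All 11 hepatocyte markers found in the table were above 0 in every library, with sums from 40210 to 67720 FPKM. Summed cholangiocyte markers were 459 and 28.6 FPKM in ND + CCl4 libraries 1 and 2, nearly all of it Spp1 (osteopontin), which other cells also make, at 455 and 26.8 FPKM.

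By GENCODE M21 on GRCm38, the build of the submitters' processing notes, all 10 are protein-coding genes. Those on the plus strand are Nags (ENSMUSG00000048217, chr11:102145513-102149477), Cps1 (ENSMUSG00000025991, chr1:67123026-67231259), Otc (ENSMUSG00000031173, chrX:10252305-10321024), Ass1 (ENSMUSG00000076441, chr2:31470207-31520672), Gls2 (ENSMUSG00000044005, chr10:128194457-128210004), Hal (ENSMUSG00000020017, chr10:93488768-93519304) and Sds (ENSMUSG00000029597, chr5:120476526-120483932). Those on the minus strand are Slc25a15 (ENSMUSG00000031482, chr8:22375551-22398597), Asl (ENSMUSG00000025533, chr5:130011258-130029247) and Arg1 (ENSMUSG00000019987, chr10:24915221-24927484).

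Inside the mitochondrion, Nags makes N-acetylglutamate, the activator without which Cps1 does not work. Nags stood at 25.7 FPKM with WD + CCl4, 22.3 and 19.5 with WD + oil, 29.2 and 26.7 with ND + CCl4, and 18.8, 23.0 and 24.1 with ND + oil. Both ND + CCl4 libraries were the highest, and the other groups lay close together. Cps1, which joins ammonia and bicarbonate into carbamoyl phosphate and commits nitrogen to the cycle, stood at 144 FPKM with WD + CCl4, 161 and 133 with WD + oil, 329 and 394 with ND + CCl4, and 209, 211 and 302 with ND + oil. The 3 western diet libraries lay below all 5 normal diet libraries, whichever injection was given. Otc, which joins carbamoyl phosphate to ornithine to give citrulline, also had its western diet libraries lowest, with 83.8 FPKM for WD + CCl4, 103 and 87.7 for WD + oil, 129.7 and 191 for ND + CCl4, and 121, 105 and 125 for ND + oil. The gap between the highest WD + oil library and the lowest ND + oil library was small for Otc and larger for Cps1. Slc25a15, the carrier that exchanges ornithine and citrulline across the inner mitochondrial membrane, varied little, with 52.2 FPKM for WD + CCl4, 50.5 and 48.6 for WD + oil, 60.9 and 69.0 for ND + CCl4, and 54.2, 53.6 and 46.1 for ND + oil. It was highest in the ND + CCl4 libraries, and the other 3 groups overlapped or nearly met.

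In the cytosol, Ass1 condenses citrulline with aspartate, which brings in the other nitrogen atom of urea. Ass1 was the most abundant of the 10 transcripts in each of the 8 libraries, at 611 FPKM with WD + CCl4, 785 and 679 with WD + oil, 1036 and 2095 with ND + CCl4, and 959, 849 and 653 with ND + oil. ND + CCl4 library 2 stood far above library 1, and the WD + oil libraries lay inside the ND + oil range. Asl splits argininosuccinate into arginine and fumarate, and stood at 129 FPKM with WD + CCl4, 133 and 182 with WD + oil, 224 and 279 with ND + CCl4, and 231, 150.5 and 129 with ND + oil. The ND + oil libraries alone spanned most of that range and overlapped each of the other groups. The western diet libraries lay below both ND + CCl4 libraries. Arg1 releases urea from arginine and was narrow within groups, at 594 FPKM with WD + CCl4, 526 and 513 with WD + oil, 901 and 797 with ND + CCl4, and 766, 666 and 602 with ND + oil. All western diet libraries lay below all normal diet libraries for Arg1, by a small step at the boundary between 594 FPKM (WD + CCl4) and 602 FPKM (ND + oil library 3).

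The remaining 3 genes release nitrogen from single amino acids. Gls2, the liver glutaminase that frees ammonia from glutamine beside Cps1, stood at 56.8 FPKM with WD + CCl4, 77.3 and 55.7 with WD + oil, 91.5 and 187 with ND + CCl4, and 98.2, 89.1 and 89.1 with ND + oil. The 3 ND + oil libraries were nearly alike, the western diet libraries were all lower, and ND + CCl4 library 1 fell inside the ND + oil range. Hal, histidine ammonia-lyase, which opens histidine breakdown by splitting off ammonia, stood at 18.4 FPKM with WD + CCl4, 15.3 and 10.2 with WD + oil, 26.3 and 54.2 with ND + CCl4, and 30.0, 38.8 and 43.5 with ND + oil. Its western diet libraries were again all below its normal diet libraries, with the 2 WD + oil libraries at the bottom. Sds, serine dehydratase, which turns serine into pyruvate and ammonia, went another way, with 195 FPKM for WD + CCl4, 153 and 163 for WD + oil, 236 and 350.4 for ND + CCl4, and 179, 163 and 83.4 for ND + oil. Its lowest library was ND + oil library 3, and the western diet libraries were not below the normal diet ones.

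**Figure D1:**
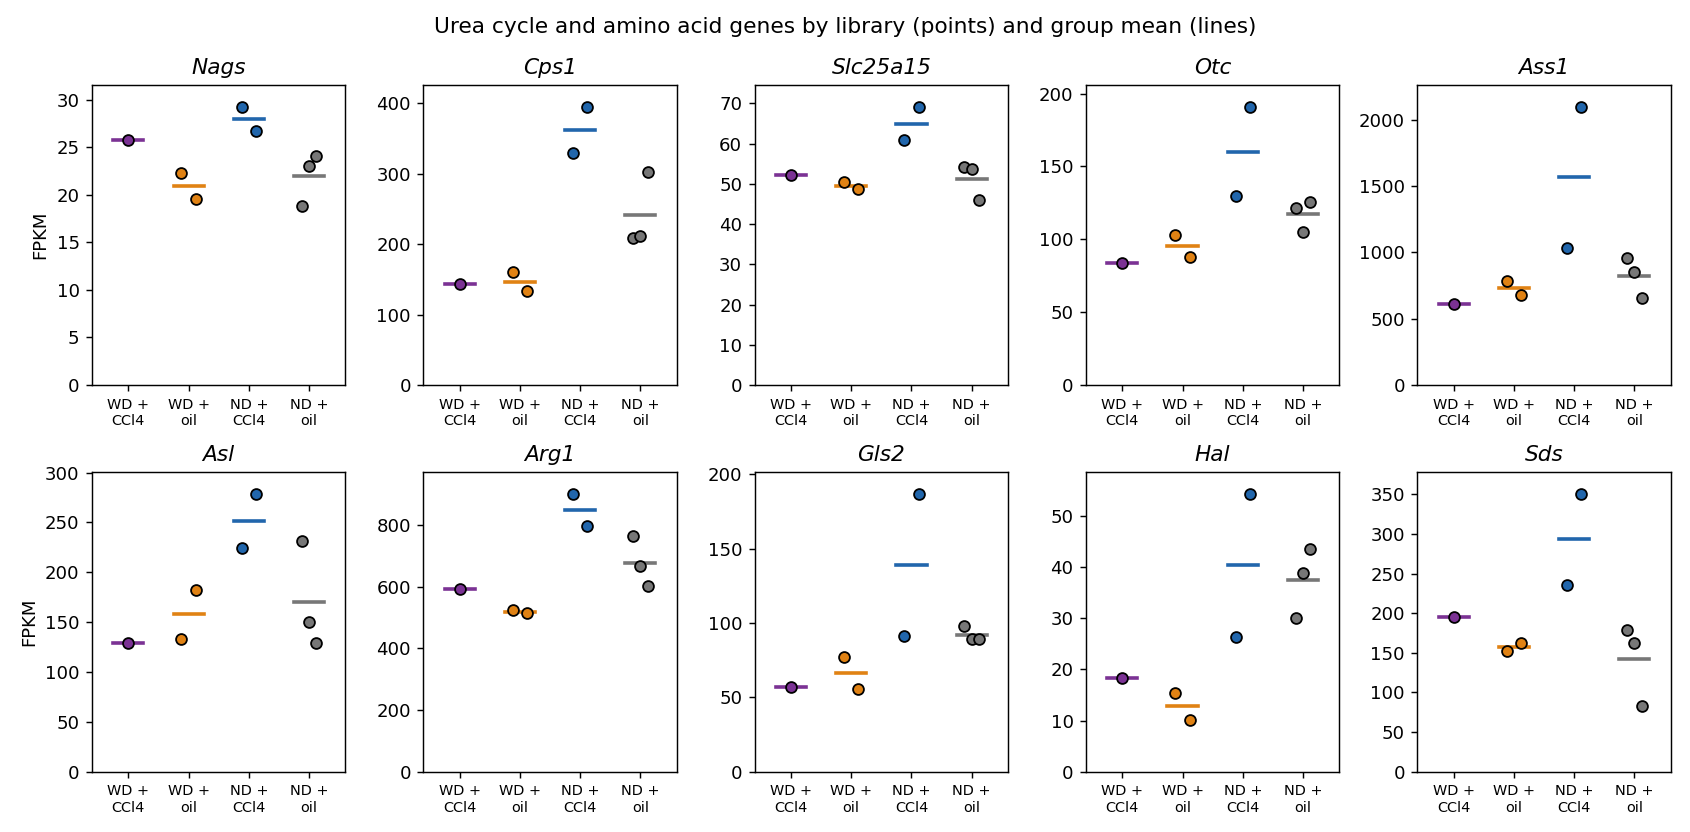
FPKM (vertical axes, each from 0) of the 10 genes in the 8 libraries, grouped along the horizontal axes as WD + CCl4, WD + oil, ND + CCl4 and ND + oil; points are libraries and lines are group means. For Cps1, Otc, Arg1, Gls2 and Hal the 3 western diet points lie below all 5 normal diet points, and for 7 genes both ND + CCl4 points lie above the 6 others.

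Across the set, 5 of 10 genes (Cps1, Otc, Arg1, Gls2 and Hal) had all 3 western diet libraries below all 5 normal diet libraries, against 2.03% of all tested genes. These 5 kept that order under each of the 3 other scalings, where 6 or 7 members showed it. In bulk liver, fewer hepatocytes of the periportal kind and less RNA per cell cannot be told apart. A total of 7 of 10 genes (all but Asl, Gls2 and Hal) had both ND + CCl4 libraries above the other 6 libraries, against 12.5% of all tested genes. This count was 4 under removal of the Mup family and under hepatocyte marker scaling and 0 under median-of-ratios scaling. For both patterns the share of all tested genes under the other scalings was not computed. The shares of 2.03% and 12.5% hold for the deposited values only, so the counts under the other scalings have no share beside them. As deposited, mean levels were highest with ND + CCl4 for all 10 genes. The lowest mean was that of WD + CCl4 for Cps1, Otc, Ass1, Asl and Gls2, that of WD + oil for Nags, Slc25a15, Arg1 and Hal, and that of ND + oil for Sds. No pair of groups next to each other in the order of a gene differed past the limma threshold.

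Summed over Cps1, Otc, Ass1, Asl and Arg1, the 5 enzymes of the cycle proper made up 0.283% of the FPKM sum with WD + CCl4, 0.315% and 0.278% with WD + oil, 0.509% and 0.703% with ND + CCl4, and 0.381%, 0.337% and 0.296% with ND + oil. The WD + oil and ND + oil libraries overlapped on that measure. Once the Mup family was taken out of the sum, the shares were 0.308% with WD + CCl4, 0.347% and 0.309% with WD + oil, 0.524% and 0.737% with ND + CCl4, and 0.458%, 0.433% and 0.438% with ND + oil. On this measure the western diet groups lay below ND + oil and ND + CCl4 lay above it, with no overlap. Ass1 and Arg1 were the largest parts of the sum in every library. Taken singly with the Mup family removed, Ass1 and Asl overlapped between WD + oil and ND + oil. Cps1, Otc and Asl then overlapped between ND + CCl4 and ND + oil. These sums were not tested.

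The western diet was set against the normal diet in oil-injected mice. Hal fell with WD + oil, to 12.8 ± 3.64 FPKM (SD, n = 2), against 37.4 ± 6.87 FPKM with ND + oil (SD, n = 3). The log2 fold change of FPKM + 1 was -1.49 ± 0.33 (SE), with limma's adjusted p of 0.0466. Hal was the 1 member of 10 that passed, beside 4.41% of all tested genes that passed in either direction and 0.599% that fell. Of all tested genes 439 rose and 69 fell as deposited, and 217 rose and 72 fell under median-of-ratios scaling. Without WD + oil library 1 or 2 the limma adjusted p of Hal was 0.142 or 0.381, without ND + oil library 1, 2 or 3 it was 0.0798, 0.123 or 0.117, and over all 18 alternatives it lay between 0.015 and 0.381, with log2 fold changes between -1.76 and -1.22. The call therefore rested on each of the 5 libraries compared, while the direction did not change.

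The other 9 genes did not pass with WD + oil. Cps1 had a log2 fold change of -0.69 ± 0.23 (SE), with 147 ± 19.4 FPKM (SD, n = 2) for WD + oil and 241 ± 53.0 FPKM (SD, n = 3) for ND + oil, at a limma adjusted p of 0.128. Arg1 had -0.38 ± 0.20 (limma adjusted p = 0.294), Gls2 -0.48 ± 0.30 (0.386) and Otc -0.29 ± 0.22 (0.459). The 95% interval for Cps1 ran from -1.23 to -0.16 and that for Gls2 from -1.18 to 0.22, so a fall of more than 2-fold lies within both. Nags, Slc25a15, Asl and Ass1 lay between -0.15 and -0.05, and Sds had 0.23 ± 0.34 (limma adjusted p = 0.726). In all, 9 of 10 genes had a log2 fold change below 0, against 23.2% of all tested genes, and the median was -0.22 beside 0.22 for all tested genes. Under median-of-ratios scaling Sds also lay below 0 (-0.04), and no member changed to the other side under removal of the Mup family or hepatocyte marker scaling. The WD + oil libraries lay below all ND + oil libraries for 5 of 10 genes (Hal, Cps1, Arg1, Gls2 and Otc), against 5.18% of all tested genes. At an unadjusted limma p below 0.05 there were 2 genes, Hal and Cps1, both lower. Over all 11514 tested genes that count was 2681, in either direction.

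Because Hal was the gene that passed, its promoter is printed with those of Otc and Nags, 2 members that did not pass. RefSeq promoters (build GRCm38.p6) matched 5 of the 10 members. The windows of the other 2, Ass1 and Slc25a15, are not printed because they run into GENCODE exons, by 63 bases for Ass1 and by 88 and 151 bases for the 2 windows of Slc25a15. Each window holds the 250 bases before the start of the transcript, 5′ to 3′ on the strand of the gene. Capitals mark matches on either strand to 6 motifs: the C/EBP core TTGCNNAA, the CRE half-site TGACG, the TATA box TATAAA, the HNF4 half-site CAAAGTC, the CCAAT box CCAAT and the GC box GGGCGG. The window of Hal is chr10:93488518-93488767, that of Otc is chrX:10252055-10252304 and that of Nags is chr11:102145263-102145512, all on the plus strand and clear of GENCODE exons.
Hal: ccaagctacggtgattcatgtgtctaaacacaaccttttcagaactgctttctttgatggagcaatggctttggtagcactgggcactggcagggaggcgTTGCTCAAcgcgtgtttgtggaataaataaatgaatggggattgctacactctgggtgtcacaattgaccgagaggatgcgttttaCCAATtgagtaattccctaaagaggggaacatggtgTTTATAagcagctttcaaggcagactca
Otc: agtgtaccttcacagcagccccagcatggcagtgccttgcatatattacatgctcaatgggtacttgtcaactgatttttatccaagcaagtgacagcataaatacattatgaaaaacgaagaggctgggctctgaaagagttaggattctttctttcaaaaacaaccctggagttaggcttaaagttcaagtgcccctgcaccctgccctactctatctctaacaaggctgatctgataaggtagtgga
Nags: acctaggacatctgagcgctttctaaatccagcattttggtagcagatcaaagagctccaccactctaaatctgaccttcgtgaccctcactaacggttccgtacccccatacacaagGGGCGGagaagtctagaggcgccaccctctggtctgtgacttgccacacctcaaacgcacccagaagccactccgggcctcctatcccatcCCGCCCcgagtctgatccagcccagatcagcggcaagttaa

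The Hal window held a C/EBP core (TTGCTCAA, 150 to 143 bases before the start), a CCAAT box 64 to 60 bases before it and a TATA box on the opposite strand 28 to 23 bases before it. C/EBP proteins are transcription factors that drive many hepatocyte genes. Among 32851 promoter windows of the same length, 9.56% held the C/EBP core, 33.8% the CCAAT box and 12.4% the TATA box. Otc held none of the 6 motifs in its window, Nags held 2 GC boxes, and 32.7% of all windows held a GC box. The other motifs, the CRE half-site (17.8% of all windows) and the HNF4 half-site (3.84%), were in none of the 3 windows. The windows differed in base composition, with a GC content of 45.6% for Hal, 43.6% for Otc and 55.6% for Nags, beside a median of 52.4% over all windows. The number of CpG dinucleotides was 6 for Hal, 1 for Otc and 11 for Nags, beside a median of 6.

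CCl4 was set against oil under the normal diet. No member passed, while 1.42% of all tested genes did (118 rose and 46 fell as deposited, and 36 rose and 54 fell under median-of-ratios scaling). Sds came nearest, with 293 ± 81.0 FPKM (SD, n = 2) for ND + CCl4 and 142 ± 51.1 FPKM (SD, n = 3) for ND + oil, a log2 fold change of 1.09 ± 0.34 (SE) and a limma adjusted p of 0.145. Ass1 had 0.86 ± 0.32 (limma adjusted p = 0.183), Cps1 0.60 ± 0.23 (0.188) and Asl 0.60 ± 0.29 (0.25). Slc25a15, Otc, Nags, Arg1 and Gls2 lay between 0.33 and 0.50, at limma adjusted p-values from 0.265 to 0.325. Hal had 0.03 ± 0.33, with libraries of 26.3 and 54.2 FPKM for ND + CCl4 on both sides of the ND + oil range. At an unadjusted limma p below 0.05 there were 3 genes, Sds, Ass1 and Cps1, all higher. Over all 11514 tested genes that count was 2621, in either direction.

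All 10 members had a log2 fold change above 0 for ND + CCl4 against ND + oil, against 83.9% of all tested genes, with a median of 0.47 beside 0.26. Under median-of-ratios scaling 8 of 10 lay above 0, with a median of 0.14 beside 0.003 for all tested genes. Hal lay at -0.29 and Arg1 at -0.002 there. Hal was also below 0 under removal of the Mup family (-0.11) and hepatocyte marker scaling (-0.06). As deposited, the libraries of 7 genes lay above all ND + oil libraries, against 41.8% of all tested genes. This count was 0 under median-of-ratios scaling, against 15.2% of all tested genes. It was 4 under removal of the Mup family (against 24.2%) and under hepatocyte marker scaling (against 31.7%). Without ND + CCl4 library 2 the median of the members was 0.38, beside 0.35 for all tested genes, and Gls2 and Hal lay below 0.

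**Figure D2:**
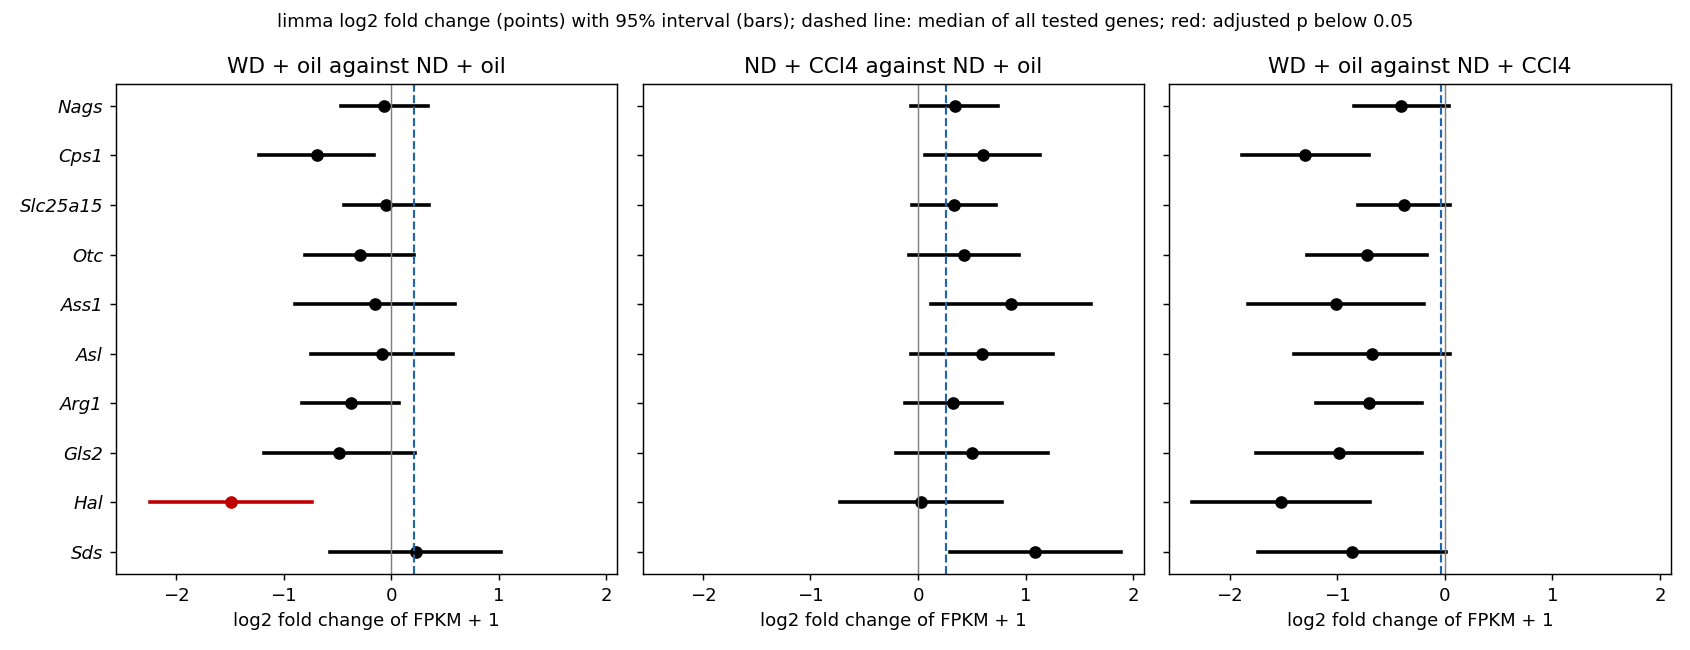
Limma log2 fold changes of FPKM + 1 (horizontal axes) for the 10 genes in WD + oil against ND + oil, ND + CCl4 against ND + oil, and WD + oil against ND + CCl4; points are estimates, bars 95% intervals, red an adjusted p below 0.05, and dashed lines the median of all tested genes. Hal at -1.49 in the left panel is the 1 red point, and in the right panel all 10 points lie left of the dashed line.

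The western diet alone was also set against CCl4 alone. All 10 members had a log2 fold change below 0 for WD + oil against ND + CCl4, against 55.1% of all tested genes, and the WD + oil libraries of all 10 lay below both ND + CCl4 libraries, against 22.8% of all tested genes. Both counts were 10 under each of the 3 other scalings too. There the share of all tested genes below both ND + CCl4 libraries was 19.5% to 21.2%. As deposited, the median was -0.79, beside -0.04 for all tested genes. No member passed, and 0.617% of all tested genes did. Cps1 was nearest, with 147 ± 19.4 FPKM for WD + oil and 362 ± 45.8 FPKM for ND + CCl4 (SD, n = 2 each), and its log2 fold change was -1.30 ± 0.25 (SE; limma adjusted p = 0.0787). Without ND + oil library 3, which is in neither group and enters only through the shared spread, its limma adjusted p was 0.0422, and over the 18 alternatives it ran from 0.0422 to 0.48. Hal had -1.52 ± 0.36 (limma adjusted p = 0.133), Ass1 -1.01 ± 0.35 (0.328), Gls2 -0.98 ± 0.33 (0.312), Otc -0.72 ± 0.24 (0.307) and Arg1 -0.71 ± 0.21 (0.252). Sds, Asl, Nags and Slc25a15 lay between -0.86 and -0.38. At an unadjusted limma p below 0.05 there were 6 genes, all lower. Over all 11514 tested genes that count was 1279, in either direction. The comparisons share groups, so their values are given side by side and overlaps between them were not computed.

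The WD + CCl4 group holds 1 library, which was assumed to vary like the others. Against ND + oil no member passed, and 0.929% of all tested genes did. The log2 fold change was -0.72 ± 0.29 for Cps1 (limma adjusted p = 0.3), and Hal had -0.97 ± 0.41 (0.316) and Gls2 -0.69 ± 0.39 (0.448). Of the members 7 of 10 lay below 0, against 27.7% of all tested genes, and 6 had the WD + CCl4 library below all ND + oil libraries, against 13.4%. Slc25a15, at 0.03, was below 0 under the 3 other scalings, and Sds and Nags lay above 0 at 0.53 and 0.23. At an unadjusted limma p below 0.05 there were 2 genes, Cps1 and Hal, both lower. Over all 11514 tested genes that count was 1758, in either direction.

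Set against ND + CCl4, the WD + CCl4 library was lower for all 10 genes, against 59.2% of all tested genes below 0 and 39.3% below both ND + CCl4 libraries. Under median-of-ratios scaling 9 of 10 lay below both libraries, against 31.8% of all tested genes. The log2 fold change was -1.32 ± 0.31 for Cps1 (limma adjusted p = 0.228), and Ass1 had -1.27 ± 0.43 (0.524), Gls2 -1.19 ± 0.41 (0.526) and Otc -0.90 ± 0.30 (0.49). No member passed, and 0.261% of all tested genes did. At an unadjusted limma p below 0.05 there were 5 members, beside 818 of all 11514 tested genes. Set against WD + oil, the library was on no common side: 5 members lay above 0 and 5 below, from Hal at 0.52 ± 0.44 to Asl at -0.27 ± 0.38. There no member passed, and 0.0434% of all tested genes did. No member had an unadjusted limma p below 0.05, beside 482 of all 11514 tested genes. The interaction, the CCl4 difference under the western diet minus that under the normal diet, passed for no member and for 0.0608% of all tested genes. It lay below 0 for 9 of 10 members, against 81.1% of all tested genes. Under median-of-ratios scaling it did so for 6 of 10, with a median of -0.25 beside 0.002 for all tested genes. As deposited, Ass1 had -1.12 ± 0.54 (limma adjusted p = 0.529) and Hal, the exception, 0.49 ± 0.55 (0.732).

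Related enzymes encoded by other genes were checked beside the members. Arg2, the mitochondrial arginase, was listed at 0 in ND + CCl4 library 2 and in every ND + oil library and reached 0.462 FPKM at most, so it was not tested. Sdsl, a serine dehydratase-like enzyme, lay between 5.05 and 8.68 FPKM in all libraries, beside 83.4 to 350.4 FPKM for Sds. Sdsl passed in no comparison.

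Glul, the pericentral partner of the cycle, was highest with WD + oil and lowest with ND + CCl4. It stood at 90.0 FPKM with WD + CCl4, 352 and 339.8 with WD + oil, 42.9 and 72.3 with ND + CCl4, and 200.1, 221 and 174 with ND + oil. The 4 groups did not overlap. Glul fell with ND + CCl4 against ND + oil, by 1.81 ± 0.25 on the log2 scale (SE; limma adjusted p = 0.0227), and rose with WD + oil against ND + CCl4, by 2.61 ± 0.27 (limma adjusted p = 0.0163), while WD + oil against ND + oil gave 0.81 ± 0.25 (limma adjusted p = 0.107). Leaving out either WD + oil library ended the call of WD + oil against ND + CCl4 (limma adjusted p = 0.145 without library 1 and 0.135 without library 2), as did no filter (0.0633) and the compared groups alone (0.0547). The fall with ND + CCl4 lost its call without ND + CCl4 library 1 (0.104), WD + oil library 1 (0.0644) or 2 (0.0638), or ND + oil library 1 (0.0581) or 2 (0.0938), and also with no filter (0.0672), with the replicate block (0.0604) and with the compared groups alone (0.064). WD + oil against ND + oil passed with the compared groups alone (limma adjusted p = 0.0431) and without ND + CCl4 library 1 (0.0415) or 2 (0.0411). For Glul in WD + CCl4 against ND + oil the log2 fold change was -1.13 (limma adjusted p = 0.152) with all libraries. That call also changed when either ND + CCl4 library was left out. Oat, ornithine aminotransferase, a pericentral enzyme that takes ornithine away from the cycle, stood at 32.1 FPKM with WD + CCl4, 267 and 163 with WD + oil, 18.9 and 93.2 with ND + CCl4, and 198, 214 and 98.1 with ND + oil. Its ND + CCl4 libraries differed about as much as its groups did. It passed in no comparison with all libraries, where ND + CCl4 against ND + oil gave -1.90 (limma adjusted p = 0.156), but without ND + CCl4 library 2 that comparison gave -3.02 and passed (0.0172). Without that library and ND + oil library 3, Oat passed for ND + CCl4 against ND + oil (limma adjusted p = 0.00817), WD + CCl4 against ND + oil (0.0273) and WD + oil against ND + CCl4 (0.0135).

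Ratios between 2 genes of the same library do not depend on how libraries are scaled. Gls2 over Glul, glutamine splitting beside glutamine making, was 0.631 with WD + CCl4, 0.219 and 0.164 with WD + oil, 2.13 and 2.58 with ND + CCl4, and 0.491, 0.403 and 0.511 with ND + oil. The 4 groups did not overlap, with WD + oil lowest and ND + CCl4 highest. Glul alone, the denominator of this ratio and the next, also kept the 4 groups apart, while Gls2 alone did not. Cps1 over Glul was 1.60 with WD + CCl4, 0.456 and 0.392 with WD + oil, 7.68 and 5.45 with ND + CCl4, and 1.05, 0.953 and 1.73 with ND + oil. Here WD + CCl4 lay inside the ND + oil range and the other groups kept apart. Hal over Uroc1, the next enzyme of histidine breakdown, was 0.272 with WD + CCl4, 0.222 and 0.184 with WD + oil, 0.240 and 0.413 with ND + CCl4, and 0.586, 0.562 and 0.713 with ND + oil. The 3 other groups lay below all ND + oil libraries on this ratio, also ND + CCl4, where the Hal level itself overlapped ND + oil and Uroc1 stood at 109.9 and 131 FPKM, against 51.2, 69.1 and 61.1 FPKM with ND + oil. Cps1 over its activating enzyme Nags was 5.59 with WD + CCl4, 7.20 and 6.81 with WD + oil, 11.3 and 14.8 with ND + CCl4, and 11.1, 9.16 and 12.5 with ND + oil. The western diet libraries were again below all others. Neighbouring steps of the cycle overlapped between groups. Otc over Slc25a15 was 1.61 with WD + CCl4, 2.04 and 1.80 with WD + oil, 2.13 and 2.76 with ND + CCl4, and 2.24, 1.96 and 2.72 with ND + oil. Ass1 over Asl was 4.73 with WD + CCl4, 5.90 and 3.72 with WD + oil, 4.62 and 7.52 with ND + CCl4, and 4.16, 5.65 and 5.06 with ND + oil. These 6 ratios were taken from 12 with the levels known, and none was tested.

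**Figure D3:**
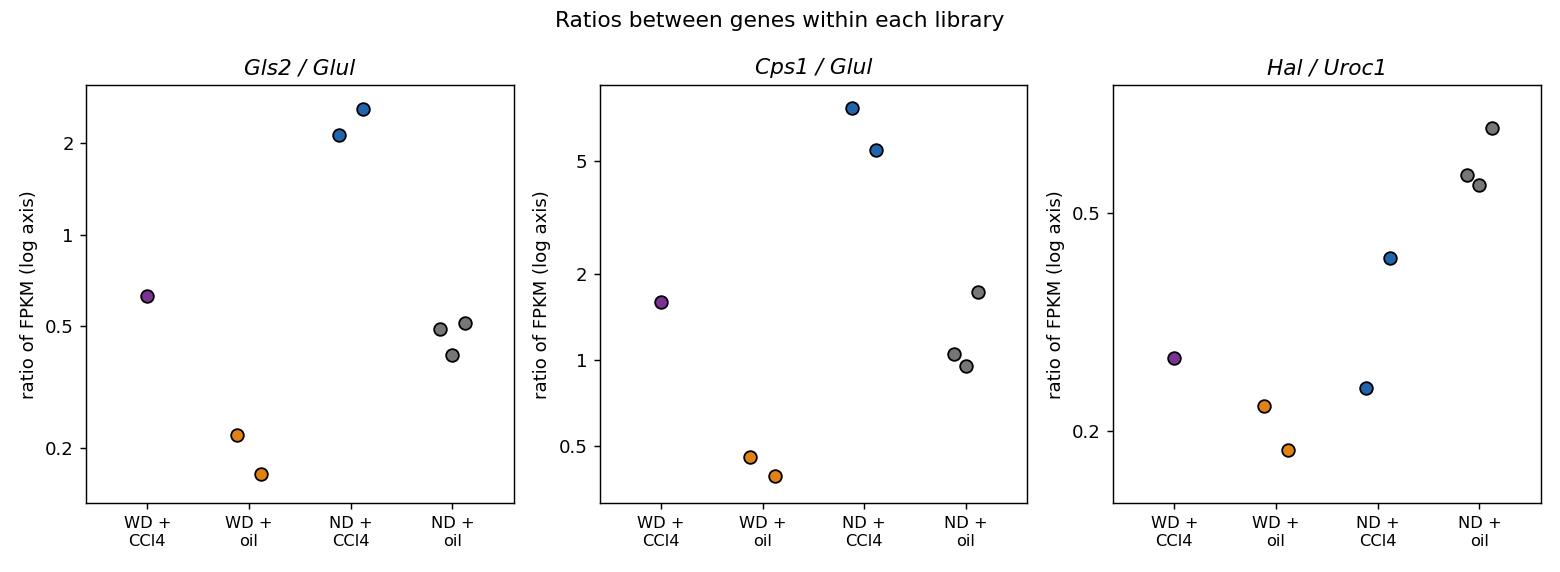
Ratio of the FPKM of 2 genes within each library (vertical log axes) for Gls2 over Glul, Cps1 over Glul and Hal over Uroc1, by group along the horizontal axes; each point is a library. ND + CCl4 stands highest for both Glul ratios (2.13 and 2.58 for Gls2) and WD + oil lowest, while for Hal over Uroc1 the ND + oil libraries (0.562 to 0.713) stand above the other groups.

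The lists that follow can be set beside all tested genes. Of these, 4.41% passed for WD + oil against ND + oil, with a median of 0.22. For ND + CCl4 against ND + oil 1.42% passed, with a median of 0.26. For WD + oil against ND + CCl4 0.617% passed, with a median of -0.04. Genes that feed nitrogen into the cycle or carry amino acids (22 genes, 21 tested) changed in few cases. For WD + oil against ND + oil 1 of 21 rose and 0 fell, with a median of 0.19, and the gene that rose was Rhbg, an ammonia transporter of pericentral cells, at 1.14 ± 0.20 (limma adjusted p = 0.0272). With ND + CCl4 against ND + oil 1 rose, the amino acid transporter Slc43a1 at 1.36 ± 0.22 (limma adjusted p = 0.0317), and Glul fell, with a median of 0.35. In WD + oil against ND + CCl4, Glul rose and Slc43a1 fell, by 1.61 ± 0.24 (limma adjusted p = 0.0317), with a median of -0.14. Downstream of Hal and Sds, none of 14 genes of histidine, serine and glycine breakdown passed in any comparison. Agxt, which detoxifies glyoxylate, had -0.85 ± 0.29 (limma adjusted p = 0.137) and Agxt2 0.49 ± 0.17 (0.14) with WD + oil against ND + oil. Uroc1 had 0.99 ± 0.21 (limma adjusted p = 0.0683) and Glyctk, glycerate kinase, 0.52 ± 0.20 (0.192) with ND + CCl4 against ND + oil. Between WD + oil and ND + CCl4, Uroc1 had -0.95 ± 0.23 (limma adjusted p = 0.142) and Grhpr, glyoxylate reductase, 0.59 ± 0.23 (0.397).

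Among 14 genes of aromatic amino acid and tryptophan breakdown, 2 rose and 0 fell with ND + CCl4 against ND + oil, with a median of 0.15. They were Acmsd, at 1.17 ± 0.21 (limma adjusted p = 0.0455), and Tdo2, the first enzyme of tryptophan breakdown, at 1.02 ± 0.19 (0.046). Tdo2 fell with WD + oil against ND + CCl4, by 1.50 ± 0.21 (limma adjusted p = 0.0269), and Acmsd had -1.31 ± 0.24 (0.0606). None passed for WD + oil against ND + oil, with Afmid, of tryptophan breakdown, at -0.62 ± 0.23 (limma adjusted p = 0.16) and Tdo2 at -0.48 ± 0.19 (0.178). None of 20 genes of branched-chain, lysine, proline and sulphur amino acid breakdown passed in any comparison. Cth, which makes cysteine from cystathionine, came nearest with -0.92 ± 0.27 (limma adjusted p = 0.0915) for WD + oil against ND + oil and -1.56 ± 0.30 (0.0721) for WD + oil against ND + CCl4. Next came Bckdhb at 0.57 ± 0.19 (limma adjusted p = 0.122) for WD + oil against ND + oil and Dbt at -0.87 ± 0.20 (0.133) for WD + oil against ND + CCl4, both subunits of the branched-chain ketoacid dehydrogenase. For ND + CCl4 against ND + oil they were Aass, of lysine breakdown, at 0.64 ± 0.18 (limma adjusted p = 0.119) and Mccc1, of leucine breakdown, at 0.50 ± 0.16 (0.146).

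Of 12 regulators of amino acid enzymes, none passed in any comparison. Nearest for WD + oil against ND + oil were Foxo1, a transcription factor restrained by insulin, at 0.42 ± 0.16 (limma adjusted p = 0.161) and Sirt5, a mitochondrial deacylase that acts on Cps1, at 0.29 ± 0.19 (0.417). With ND + CCl4 against ND + oil they were the transcription factors Creb3l3 at 0.59 ± 0.20 (limma adjusted p = 0.161) and Foxa2 at 1.18 ± 0.43 (0.176). For WD + oil against ND + CCl4 they were Foxa2 at -1.36 ± 0.47 (limma adjusted p = 0.321) and Hnf4a at -0.48 ± 0.18 (0.369).

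Other markers of the portal side did not move as a block. In WD + oil against ND + oil 1 of 12 rose and 0 fell, with a median of -0.10: Cyp17a1, a steroid hydroxylase, had 1.84 ± 0.30 (limma adjusted p = 0.0249), and Etnppl, phosphoethanolamine lyase, -1.25 ± 0.30 (0.0568). Of the 12, 7 lay below 0 and 5 above, while 23.2% of all tested genes lay below 0. The WD + oil libraries of 4 lay below all ND + oil libraries and those of 5 above. For all tested genes these shares were 5.18% and 40.7%. With ND + CCl4 against ND + oil 3 of 12 rose and 0 fell, with a median of 0.51: Aldh1b1, a mitochondrial aldehyde dehydrogenase, at 2.57 ± 0.26 (limma adjusted p = 0.00587), Hsd17b6 at 1.62 ± 0.26 (0.0327) and the lipid droplet protein Hsd17b13 at 1.37 ± 0.24 (0.0404). With WD + oil against ND + CCl4 0 rose and 2 of 12 fell, with a median of -0.48: Etnppl by 2.42 ± 0.32 (limma adjusted p = 0.0257) and Hsd17b6 by 2.08 ± 0.29 (0.0271). In the 1 WD + CCl4 library, whose spread is taken wholly from the other groups, both also passed as lower against ND + CCl4, by 3.21 ± 0.40 (limma adjusted p = 0.0291) and 2.53 ± 0.35 (0.0387), and Cyp17a1 passed as higher against ND + oil, by 2.73 ± 0.39 (limma adjusted p = 0.0265).

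Pericentral markers (12 tested of 14) had calls in both directions for WD + oil against ND + oil and against ND + CCl4. With WD + oil against ND + oil 2 rose and 1 fell, with a median of 0.32: Slc13a3, a dicarboxylate transporter, rose by 1.25 ± 0.21 (limma adjusted p = 0.026), Rhbg is given above, and the cytochrome Cyp1a2 fell by 2.29 ± 0.25 (0.0111). With ND + CCl4 against ND + oil 0 rose and 2 fell, with a median of -0.30: Glul, and the glutamate transporter Slc1a2 by 2.81 ± 0.28 (limma adjusted p = 0.00518). As deposited, 9 of these 12 markers lay below 0 and 3 above, while 83.9% of all tested genes lay above 0. The ND + CCl4 libraries of 5 lay below all ND + oil libraries and those of 2 above. For all tested genes these shares were 3.8% and 41.8%. With WD + oil against ND + CCl4 3 rose and 1 fell, with a median of 0.76: Glul, Slc1a2 by 2.86 ± 0.30 (limma adjusted p = 0.0163) and Slc13a3 by 2.03 ± 0.23 (0.0176) rose, and Cyp1a2 fell by 2.20 ± 0.27 (0.0191). In that comparison 10 of the 12 lay above 0 and 2 below, while 55.1% of all tested genes lay below 0. In the WD + CCl4 library, Cyp1a2 fell by 2.99 ± 0.31 (limma adjusted p = 0.00696) and Slc1a2 by 2.49 ± 0.35 (0.0265) against ND + oil. Against ND + CCl4, Cyp1a2 fell by 2.90 ± 0.33 (limma adjusted p = 0.0241), and Slc13a3 rose by 2.18 ± 0.28 (0.0296). None of the 7 lists had a gene that passed for WD + CCl4 against WD + oil or for the interaction. Each list count above 0 given here was 0 under at least 1 of the alternatives. Without WD + oil library 1, and likewise without library 2, no gene of these lists passed for WD + oil against ND + oil or against ND + CCl4, and without ND + CCl4 library 1 only 1 passed for ND + CCl4 against ND + oil. Leaving out any of the other libraries except the WD + CCl4 library also changed at least 1 of these counts.

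**Figure D4:**
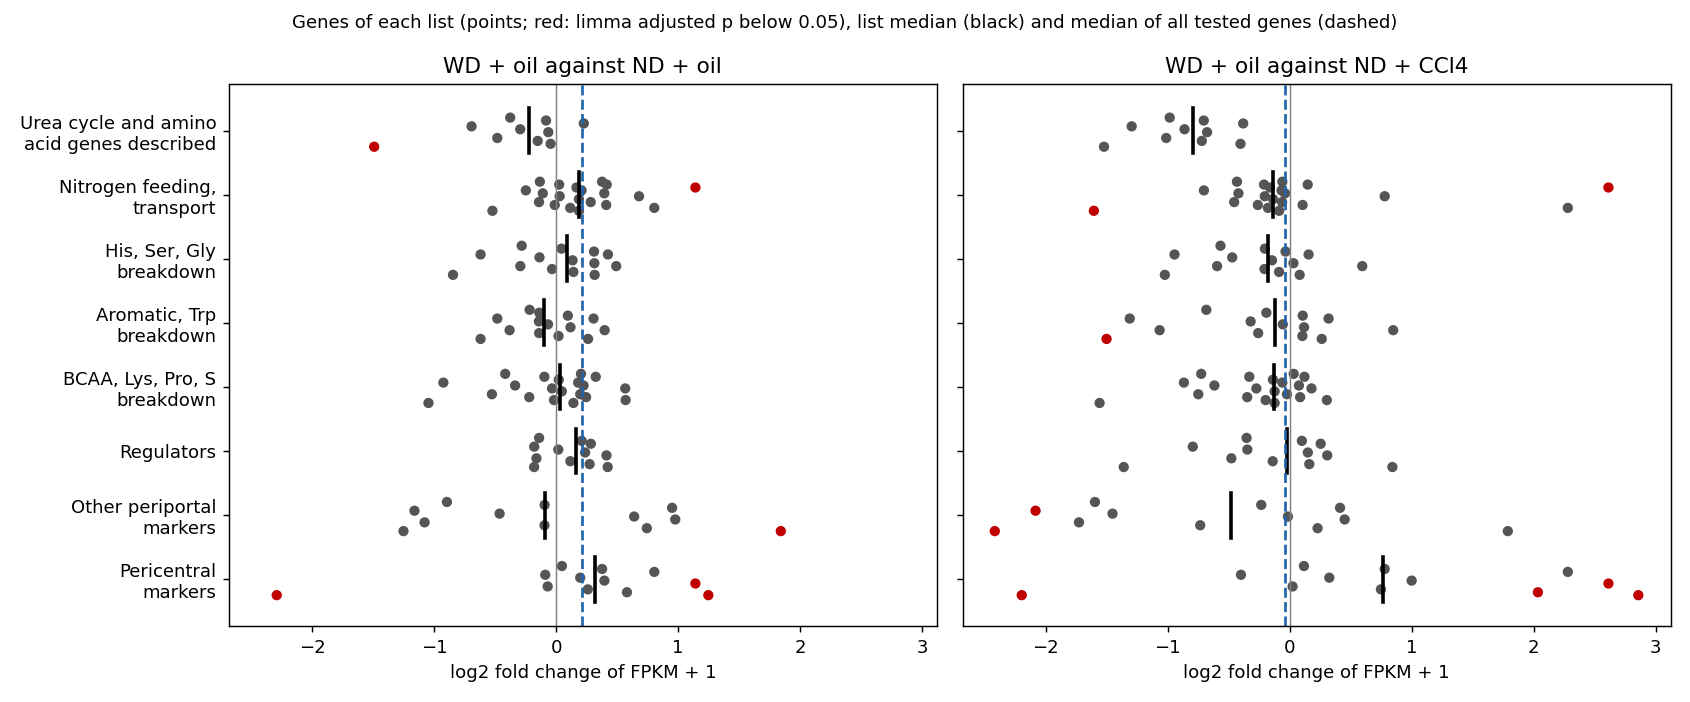
Limma log2 fold changes of FPKM + 1 (horizontal axes) of the tested genes of 8 lists (rows) in WD + oil against ND + oil and in WD + oil against ND + CCl4; points are genes, red points passed at an adjusted p below 0.05, black bars are list medians and dashed lines the median of all tested genes. The urea cycle and amino acid genes have medians of -0.22 and -0.79, and pericentral markers 0.32 and 0.76.

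Markers of other liver cells varied between libraries, and their sums, which were not tested, followed the groups only in part. Summed macrophage markers (13 genes) reached 329 FPKM with WD + CCl4, 417 and 837 with WD + oil, 387 and 118 with ND + CCl4, and 49.5 to 119 with ND + oil, so ND + CCl4 library 2 lay inside the ND + oil range. With WD + oil against ND + oil 8 of 13 rose, against 3.81% of all tested genes. That count was 0 without WD + oil library 1 or 2 and with no filter, 1 without ND + oil library 1 or 2 and with the replicate block, 5 without ND + oil library 3, and 5 of the 7 tested with a mean of at least 5 FPKM, while all 13 log2 fold changes stayed above 0 in the fits that kept all 13. Of these markers Trem2 was listed at 0 in all ND + oil libraries and ND + CCl4 library 2, and Cd163 in the WD + CCl4 library and both ND + CCl4 libraries. For WD + oil against ND + oil, 2 of 10 stellate cell markers and 3 of 7 tested endothelial markers also rose. Of 3 tested lymphocyte and neutrophil markers 1 rose, and no tested cholangiocyte or hepatocyte marker passed. These counts are from the fit with all libraries. Stellate cell markers (10 genes) summed to 85.0 FPKM with WD + CCl4, 106 and 119.9 with WD + oil, 186 and 58.3 with ND + CCl4, and 33.5 to 43.9 with ND + oil. Endothelial markers (8 genes) summed to 40.3 FPKM with WD + CCl4, 68.6 and 68.3 with WD + oil, 81.5 and 52.2 with ND + CCl4, and 26.2 to 43.0 with ND + oil, with Vwf listed at 0 in all ND + oil libraries, and the WD + CCl4 library lay inside the ND + oil range. Cholangiocyte markers (7 genes) summed to 174 FPKM with WD + CCl4, 60.4 and 97.2 with WD + oil, 459 and 28.6 with ND + CCl4, and 18.6 to 39.8 with ND + oil, with Cftr listed at 0 in every library and ND + CCl4 library 2 inside the ND + oil range. Markers of lymphocytes and neutrophils (10 genes) summed to 405 FPKM with WD + CCl4 and to at most 39.8 FPKM in any other library. The neutrophil genes S100a9 (267 FPKM) and S100a8 (135 FPKM) made up nearly all of the WD + CCl4 sum. In that library 5 of the 10 markers were listed at 0. Cd3d and Ms4a1, which were among them, were listed at 0 in every library. Summed hepatocyte markers (11 genes) were 52500 FPKM with WD + CCl4, 48280 and 41330 with WD + oil, 67720 and 57790 with ND + CCl4, and 40210 to 50140 with ND + oil, so the WD + oil libraries lay inside the ND + oil range. Under hepatocyte marker scaling, which did not divide by these sums, Hal had -1.55 ± 0.36 (limma adjusted p = 0.0508) with WD + oil against ND + oil. The part of other cell types in the levels of the 10 genes was not tested.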

How the data were processed

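The deposited table gave FPKM for 55487 genes in 8 liver libraries. Per the labels' protocols, RNA was prepared with NucleoZol and libraries with the TruSeq Stranded mRNA kit. Tools named in the submitters' processing notes, without their roles, are StringTie 2.1.0, HISAT2 2.2.1, cutadapt 3.7 and FastQC 0.11.9, with the build GRCm38. FPKM are not counts, so the depth of a library and its counting error cannot be given, and the lowest value above 0 was 0.252 to 0.318 FPKM in a library.

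Genes that reached 1 FPKM in 2 or more libraries (11514, all 10 members included) were fitted as log2(FPKM + 1) with limma 3.58.1 in R 4.3.3, with a mean for each group and eBayes with a trend (4 residual and 3.93 prior degrees of freedom). A fold change on this scale understates that of low genes. P-values were two-sided and adjusted by Benjamini-Hochberg over all tested genes within each of 7 contrasts, and a gene rose or fell at an adjusted p below 0.05. The script was tested on simulated data.

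The members, the 15 gene lists and the tests were chosen with earlier results of these data known. Named were the members, their paralogs (1 of them is not reported here), Glul and Oat and, per list and contrast, up to 4 genes that passed or, where fewer than 2 passed, the 2 with the smallest p; for contrasts with WD + CCl4 only list genes that passed are named. Alternatives were another pseudocount (0.1), a filter on the mean (5 FPKM) or none, 3 scalings, a block for the replicate number, robust eBayes, the compared groups alone and each library left out. A fit without ND + CCl4 library 2 and ND + oil library 3 was added after seeing the data. Coordinates came from GENCODE M21 and promoters from RefSeq (GRCm38.p6).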

Additional observations from a re-analysis of the deposited data

Results flagged for a closer look

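For 2 genes the FPKM as deposited lay on opposite sides of oil with CCl4 under the 2 diets, in every library. Ass1 stood at 611 FPKM with WD + CCl4 against 785 and 679 FPKM with WD + oil, and at 1036 and 2095 FPKM with ND + CCl4 against 959, 849 and 653 FPKM with ND + oil. The difference of the CCl4 effects was -1.116 ± 0.54 on the log2 scale (SE), with a limma adjusted p of 0.529. Otc stood at 83.8 FPKM with WD + CCl4 against 103 and 87.7 FPKM with WD + oil, and at 129.7 and 191 FPKM with ND + CCl4 against 121, 105 and 125 FPKM with ND + oil. Its difference was -0.606 ± 0.37 (SE), with a limma adjusted p of 0.576. The pattern depended on the scaling. Under median-of-ratios scaling ND + CCl4 library 1 stood at 861.7 for Ass1, against 1077, 911.5 and 778.2 with ND + oil, and at 107.8 for Otc, against 136.1, 112.3 and 149.3 with ND + oil. For Otc it also lay below ND + oil library 3 under removal of the Mup family (146.4 against 171.2) and under hepatocyte marker scaling (124.6 against 142.9). Neither difference passed the test of the interaction, and the western diet arm rests on 1 library with CCl4. Dixon's test for a far library was not applied because no group held 4 libraries.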

How the results depend on the processing

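For WD + oil against ND + oil the count of members that passed was 1 (Hal). It was 0 with a pseudocount of 0.1, with no filter, under median-of-ratios scaling and under hepatocyte marker scaling, and it lay between 0 and 1 when each library was left out in turn. For WD + oil against ND + CCl4 the count was 0 and lay between 0 and 1 when each library was left out (Cps1 passed without ND + oil library 3). In the other 5 contrasts it was 0 under every alternative. With the replicate number as a block the count for WD + oil against ND + oil was 0 (Hal, limma adjusted p = 0.189), and 20 genes rose and 12 fell over all tested genes instead of 439 and 69. The correlations between same-numbered libraries ran from -0.279 to -0.014. They cannot settle pairing, because 2 libraries of a group deviate as mirror images and the 1 WD + CCl4 library did not enter. The numbers were not read as pairs. No called member changed sign, and of 69 values of members that had not passed, 8 changed sign under median-of-ratios scaling, 4 under removal of the Mup family, and 3 each under hepatocyte marker scaling and the block. Without ND + CCl4 library 2 and ND + oil library 3, Hal passed for WD + oil against ND + oil (limma adjusted p = 0.0318), and 5 values changed sign. Over all alternatives the genes that passed ranged from 4 to 1148 for WD + oil against ND + oil (508 as reported), 18 to 1171 for ND + CCl4 against ND + oil (164), 6 to 483 for WD + CCl4 against ND + oil (107) and 1 to 157 for WD + oil against ND + CCl4 (71). They ranged from 0 to 69 for WD + CCl4 against WD + oil (5), 0 to 109 for WD + CCl4 against ND + CCl4 (30) and 0 to 157 for the interaction (7). The causes were not tested. Without counts, no limit set by depth can be given.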
